A study of Caenorhabditis elegans with 6 samples.

Results

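Genes of the RNA polymerase II, TFIID and Mediator complexes were compared between AB and P1, the anterior and the posterior cell of the 2-cell *Caenorhabditis elegans* embryo. They were chosen by name: a gene entered where its public name in the deposited tables began with *mdt*, *rpb*, *taf*, *spt*, *ttb*, *tbp* or *tlf* and a number, or was *ama-1*, *let-19*, *let-49*, *dpy-22*, *cdk-8* or *cic-1*. This gave 58 of 20240 gene models, of which 12 encode subunits of the polymerase, 20 encode TFIID subunits, TBP and its relative or TFIIB, 24 carry the names of Mediator subunits, and 2 are *spt* genes. All embryos were of the wild-type strain N2, from mothers grown at 20 degrees on OP50 bacteria. The eggshells were removed with bleach, chitinase and chymotrypsin, the sister cells were separated with a mouth pipette, and 20 cells of a kind were pooled for each library, with 3 libraries of AB and 3 of P1. Poly(A) RNA of each pool was amplified by *in vitro* transcription and sequenced (RNA-amp-seq), so that a library is an average over 20 embryos and its values are relative to the recovered RNA. AB is the larger cell, and a difference in total RNA between the cells is not measured.

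RNA polymerase II is the enzyme that makes messenger RNA. TFIID, which is built from the TATA-binding protein and its associated factors (TAFs), marks the promoter, TFIIB links it to the polymerase, and Mediator carries signals from transcription factors to the assembled complex. The 2-cell embryo lives on RNA laid down by the mother: in it, OMA-1 and OMA-2 hold the TFIID subunit TAF-4 in the cytoplasm, away from its partner TAF-12, and in the P lineage PIE-1 later blocks the polymerase. The transcripts measured here are therefore, as background, those that the mother supplied. Whether they yield the proteins used when embryonic transcription begins was not tested.

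The libraries held between 21249850 and 35591254 counted reads, and the 58 genes took between 0.736% and 0.806% of them. Every one of the 58 had reads in every library, and every one was present by the rule used here, a mean above 10 normalized read counts and a value above 0 in each cell. A normalized read count is the number of reads on a gene divided by 1 size factor for its library. The libraries followed their labels in marker genes of each cell. All 3 P1 markers and part of the AB markers were picked from calls on these same libraries, so this was not an independent check. The summed normalized read counts of 4 AB markers lay between 111699 and 125787 in AB and between 46412 and 54610 in P1, and those of 3 P1 markers between 3974 and 5384 in AB and between 11250 and 13549 in P1. P1 replicate 1 stood apart. Across the 58 genes, the correlation of log2 levels (Pearson's r) lay between 0.893 and 0.916 for the pairs of libraries that include it and between 0.981 and 0.992 for all others. The fold changes that moved most without that library are therefore also given without it. The 6 *vit* genes, yolk protein genes of the mother's intestine, had 286 and 256 reads in AB replicate 1 and P1 replicate 1 and between 2 and 9 in the other 4 libraries, sperm *msp* genes had at most 1 read in a library, and the muscle gene *myo-3* had 61 reads in AB replicate 3 and at most 4 elsewhere. The part of such RNA in the results was not tested.

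None of the 58 genes passed the test in either direction. With edgeR's quasi-likelihood test, 0 were AB-enriched and 0 were P1-enriched at an adjusted *P* under 0.10, where 0.604% of the 7945 present genes were AB-enriched and 0.856% were P1-enriched. At these shares a set of this size would hold few calls or none, so the count by itself does not set the 58 genes apart. At an unadjusted *P* under 0.05 there were 4 genes with edgeR, against 10.4% of the present genes. With DESeq2 there was 1, against 688 of the 7945 present genes. DESeq2 called 0 of the 58 genes and 170 of the 7945. The fold changes, given throughout as log2 of P1 over AB, lay between -0.58 and 0.72, with 27 below 0 and 31 above. Their median was 0.01, the same as the median of 0.01 over all present genes. For 47 of the 58 genes the 95% interval of the fold change lay within 1 log2 unit of 0, and for the other 11 a larger difference lies inside the interval. These were *rpb-10*, *rpb-11*, *rpb-12*, *taf-1*, *taf-3*, *taf-6.2*, *taf-7.1*, *taf-11.2*, *dpy-22*, *mdt-21* and *mdt-30*. Leaving out a single library gave at most 3 calls among the 58, which are given with the genes concerned. Without P1 replicate 2, 215 of the 7945 present genes were AB-enriched and 284 P1-enriched, beside 1 and 2 of the 58. The numbers without P1 replicate 3 were 141 and 143, beside 1 and 1. They were 239 and 293 without both libraries of replicate 1, beside 2 and 0.

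**Figure D1:**
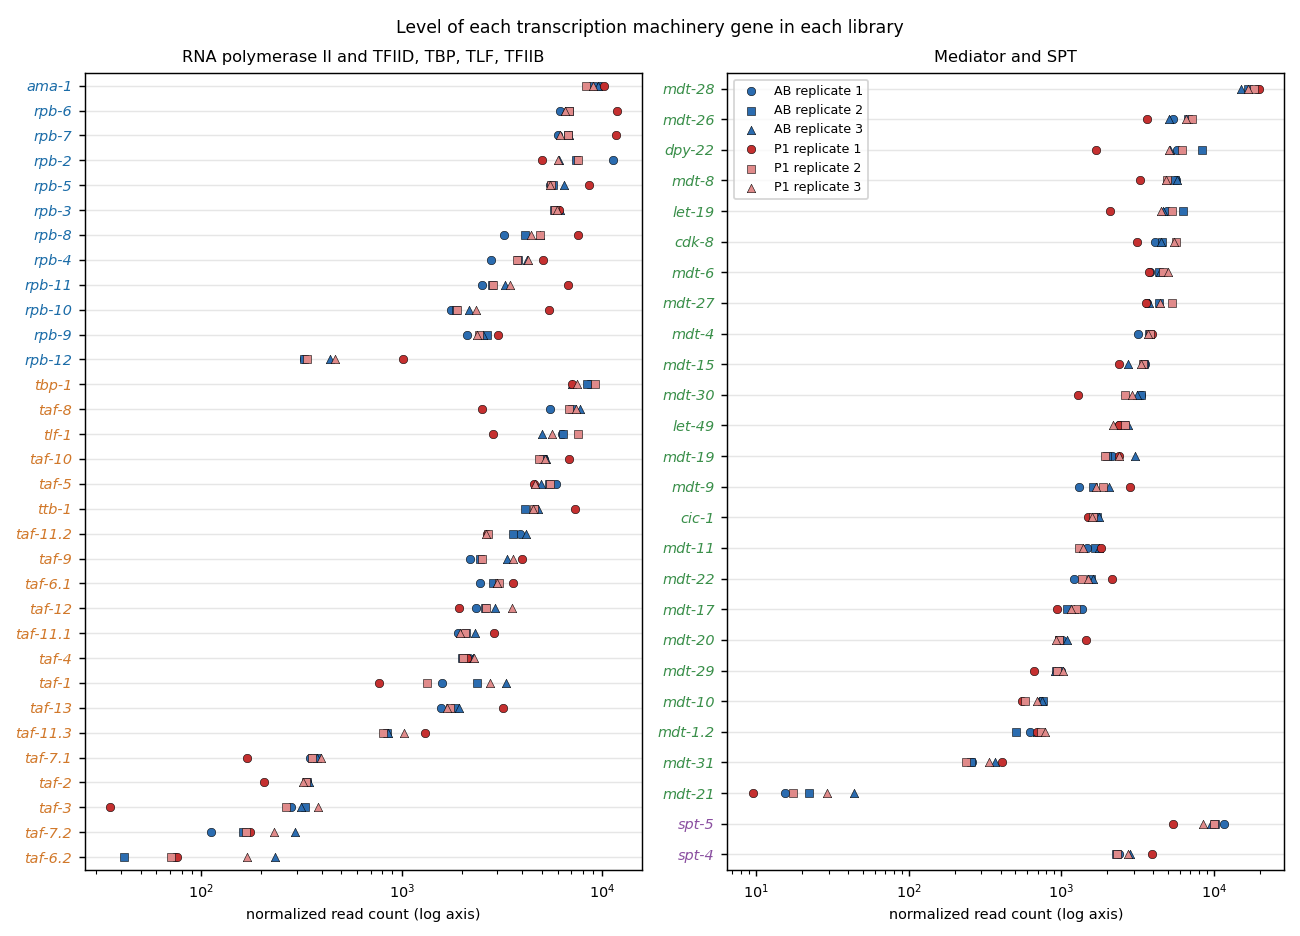
Normalized read count (log axis) of each of the 58 genes in each library, in the order of their means within each complex. Blue symbols are the 3 AB libraries, dark red circles are P1 replicate 1 and light red symbols are P1 replicates 2 and 3. For most genes 5 libraries lie close together and P1 replicate 1 lies to one side of them.

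The transcript of *ama-1*, which encodes the largest subunit of RNA polymerase II and its catalytic core, did not differ detectably between AB and P1. The gene lies on chromosome IV, 4248063 to 4258156 (ce10, as are all positions here). It had 9800.4, 8948 and 9500.2 normalized read counts in AB replicates 1, 2 and 3 and 10179, 8348 and 9044 in P1 replicates 1, 2 and 3. The highest and the lowest of these 6 values both came from P1, so the cells overlapped fully. The fold change was -0.04 ± 0.22 (SE, n = 3 per cell), with a 95% interval from -0.50 to 0.42. *ama-1* was 1 of 2 long polymerase genes. The other, *rpb-2*, encodes the second large subunit, which closes the active site with AMA-1. It had 11328, 7379 and 6095 normalized read counts in AB and 5016, 7538 and 6049 in P1, in the order of the replicates. AB replicate 1 was the highest and P1 replicate 1 the lowest, and the other 4 libraries were mixed between the cells. Its fold change was -0.42 ± 0.25, with an adjusted *P* of 0.686 by edgeR.

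The 5 members with the smallest *P* towards P1 were all small polymerase subunits: *rpb-10*, *rpb-11*, *rpb-12*, *rpb-8* and *rpb-6*. RPB-6, RPB-8, RPB-10 and RPB-12, with RPB-5, are shared by RNA polymerases I, II and III, while RPB-11 pairs with RPB-3 at the start of the enzyme's assembly. *rpb-10* (chromosome I, 2064296 to 2064691) had 1767, 1867 and 2171 normalized read counts in AB and 5429.6, 1893 and 2339 in P1. Its fold change was 0.72 ± 0.29 (edgeR, adjusted *P* = 0.463). P1 replicate 1 alone was high, and P1 replicates 2 and 3 lay within or close to the range of AB. *rpb-11* (chromosome II, 14060010 to 14060547) showed the same shape, with 2527, 2826 and 3295 in AB and 6730.4, 2841 and 3469.8 in P1 and a fold change of 0.58 ± 0.27 (adjusted *P* = 0.586). *rpb-12*, the polymerase gene with the fewest reads, had 324, 326 and 441 in AB and 1014, 339 and 467 in P1 (fold change 0.72 ± 0.35, adjusted *P* = 0.63). In all 3 genes P1 replicate 1 was the highest library and the remaining P1 libraries were not separated from AB. P1 was higher in each of the 3 pairs, but by only 0.01 to 0.11 log2 units in pairs 2 and 3. With one of those left out, *rpb-10* passed the threshold without P1 replicate 2 (0.97, adjusted *P* = 0.0181) or without P1 replicate 3 (0.91, adjusted *P* = 0.0717), and *rpb-11* did so without P1 replicate 2 (0.79, adjusted *P* = 0.09). Without P1 replicate 1 their fold changes were 0.10 and 0.10, and that of *rpb-12* was 0.12.

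*rpb-8* and *rpb-6* repeated this. *rpb-8* had 3233, 4142 and 4879 normalized read counts in AB and 7550.5, 4872 and 4391 in P1, and *rpb-6* had 6186, 6853 and 6495 in AB and 11800.2, 6813 and 6525 in P1. Their fold changes were 0.45 ± 0.25 and 0.35 ± 0.25, with adjusted *P* values of 0.674 and 0.704, and without P1 replicate 1 they were 0.16 and 0.01. Over the 12 polymerase genes, 10 fold changes were above 0 and 2 below, and the median was 0.30. Within the pairs of libraries of the same replicate number, the median log2 ratio of P1 to AB was 0.90 in pair 1, 0.01 in pair 2 and -0.03 in pair 3. The shift of the polymerase genes was thus measured in pair 1 alone. Without P1 replicate 1 the median of the fitted fold changes was -0.01, and without AB replicate 1 it was 0.17. No polymerase gene had all 3 P1 libraries above all 3 AB libraries, which 7.1% of the present genes had, or the reverse, which 8.81% had. *rpb-9*, a small subunit, is placed by the files on a merged interval that overlaps 159 other gene models. It has read counts of its own, but whether reads of its neighbours are among them was not tested. Its interval is not given as a gene.

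The polymerase subunits differed from each other in level. Divided by spliced length, the mean over the 6 libraries ran from 1485 normalized read counts per kb for *rpb-12* to 17984 for *rpb-6*, a 12.1-fold range. *ama-1* and *rpb-2* lay near the low end with 1545 and 1827, and the median of the 12 was 7036. By coding length in place of the spliced length, *ama-1* was the lowest at 1671 per kb and the range was 10.8-fold. These levels include the length dependence of P1 replicate 1 described below, and the effect of amplifying RNA from the poly(A) end on the counts per kb of long transcripts was not tested.

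TFIID and its partners showed no call either. TAF-4 is the subunit on which the OMA proteins act, and *taf-4* (chromosome I, 382836 to 394414) had the fold change nearest to 0 in this group. It had 2166, 1993 and 2274 normalized read counts in AB and 2117, 2029.7 and 2309 in P1. The values of the cells interleaved, and P1 replicate 1 was inside the range of the others. The fold change was 0.00 ± 0.22, with a 95% interval from -0.45 to 0.45. A model of 1 other gene overlaps *taf-4* in the files, and whether the counting used strand is not given in the sources used here. *taf-12*, whose product pairs with TAF-4 through a histone fold, had 2343, 2599 and 2927 in AB and 1938, 2638 and 3553 in P1. P1 held both its lowest and its highest value, and the fold change was 0.04 ± 0.24.

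The proteins that bind or bridge to the promoter DNA gave values of the same kind. *tbp-1*, the gene of the TATA-binding protein, had 8563, 8371 and 7054 normalized read counts in AB and 7085, 9171 and 7526 in P1, with a fold change of -0.02 ± 0.23. *tlf-1* encodes a relative of TBP that early worm embryos need for the transcription of part of their genes. It had 6327, 6363 and 4998 in AB and 2859, 7548 and 5644 in P1, and its lowest value by far was that of P1 replicate 1. *ttb-1*, the gene of TFIIB, had 4634, 4125 and 4788 in AB and 7283, 4572 and 4505 in P1, with P1 replicate 1 the highest. The fold changes of *tlf-1* and *ttb-1* were -0.14 ± 0.27 and 0.26 ± 0.24 with all libraries and 0.14 and -0.02 without P1 replicate 1. *tlf-1* thus changed sign at the same size, and *ttb-1* moved to near 0. Among the 20 genes of this group 11 fold changes were below 0 and 9 above, with a median of -0.01 that moved to between -0.004 and 0.003 under other scalings and filters.

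*taf-1*, the gene of the largest TFIID subunit and scaffold, had the lowest fold change of the group. It had 1590.2, 2369 and 3311 normalized read counts in AB and 775, 1337 and 2754 in P1. It was lower in P1 in each of the 3 pairs, but the range within each cell was wider than the difference of the means, and the cells overlapped. The fold change was -0.58 ± 0.33, with an adjusted *P* of 0.679. It was -0.48 (adjusted *P* = 0.075) without both libraries of replicate 1 and -1.196 (adjusted *P* = 0.0117) without P1 replicate 3, and the adjusted *P* was above 0.10 with any other library or pair left out. Without P1 replicate 1 the fold change was -0.27 (adjusted *P* = 0.687), and without AB replicate 3 it was -0.28 (adjusted *P* = 0.851). *taf-3*, whose product binds methylated histones at promoters in mammals, had 281, 328 and 315 in AB and 35.3, 266 and 382 in P1. Its P1 replicate 1 value lay -3.11 log2 units from the mean of the other 5 libraries, the largest departure among the 58 genes, and P1 replicates 2 and 3 spanned the AB values. *taf-3* was chosen for mention after its values were seen.

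In *taf-11.2* (chromosome I, 7132497 to 7134308) the replicates of each cell lay close together and apart from those of the other cell. TAF-11 is a histone-fold subunit that pairs with TAF-13, and 3 gene models carry its name. *taf-11.2* had 3907, 3593 and 4147 normalized read counts in AB and 2657, 2697 and 2627 in P1, or 3882 ± 277 in AB and 2660.5 ± 34.9 in P1 (mean ± SD, n = 3). All 3 AB libraries lay above all 3 P1 libraries, and P1 replicate 1 was between the other P1 replicates. Its fold change was -0.55 ± 0.22 with a 95% interval from -1.001 to -0.10, which leaves out 0, but the adjusted *P* over all genes was 0.463 by edgeR and 0.154 by DESeq2. With the replicate number as a block it was 0.497. Without P1 replicate 1 the fold change was -0.57 with an adjusted *P* of 0.0255, and without both libraries of replicate 1 it was -0.55 with an adjusted *P* of 0.016. Without any single other library the adjusted *P* stayed between 0.331 and 0.881. Without P1 replicate 1, 3.51% of the present genes were called AB-enriched, and *taf-11.2* was the 1 of 58 members, while 3.21% were called P1-enriched and 0 of 58 members were.

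The other *taf-11* genes did not share this. *taf-11.1* had 1912, 2092 and 2329 normalized read counts in AB and 2893, 2065 and 1948 in P1, and *taf-11.3* had 838, 842 and 860.1 in AB and 1314, 810.3 and 1033 in P1. Neither cell was separate in either gene, and P1 replicate 1 was the highest library in both. Of the reads on the 3 genes together, *taf-11.2* took 58.7%, 55.0% and 56.5% in AB replicates 1, 2 and 3 and 38.7%, 48.4% and 46.8% in P1 replicates 1, 2 and 3. Its ratio to *taf-11.1* within a library was 1.85 ± 0.173 in AB and 1.19 ± 0.237 in P1, and its ratio to *taf-11.3* was 4.58 ± 0.286 in AB and 2.63 ± 0.658 in P1 (mean ± SD, n = 3). Both ratios were lower in P1 in 3 of 3 pairs and did not overlap between the cells. Both have *taf-11.2* as numerator, so they are not results separate from its own difference. The other ratios tested, among them *taf-11.1* to *taf-11.3*, overlapped between the cells. In an exact two-sided permutation test of the log2 ratio, *P* was 0.1 for each *taf-11.2* ratio. That is the smallest value that 3 against 3 libraries can give, and any ratio without overlap gives it. After Benjamini-Hochberg adjustment over the 6 ratios tested it was 0.3. These are ratios of read counts, not divided by length, and their sequence likeness was not examined, so reads shared by the copies are not excluded from the values.

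**Figure D2:**
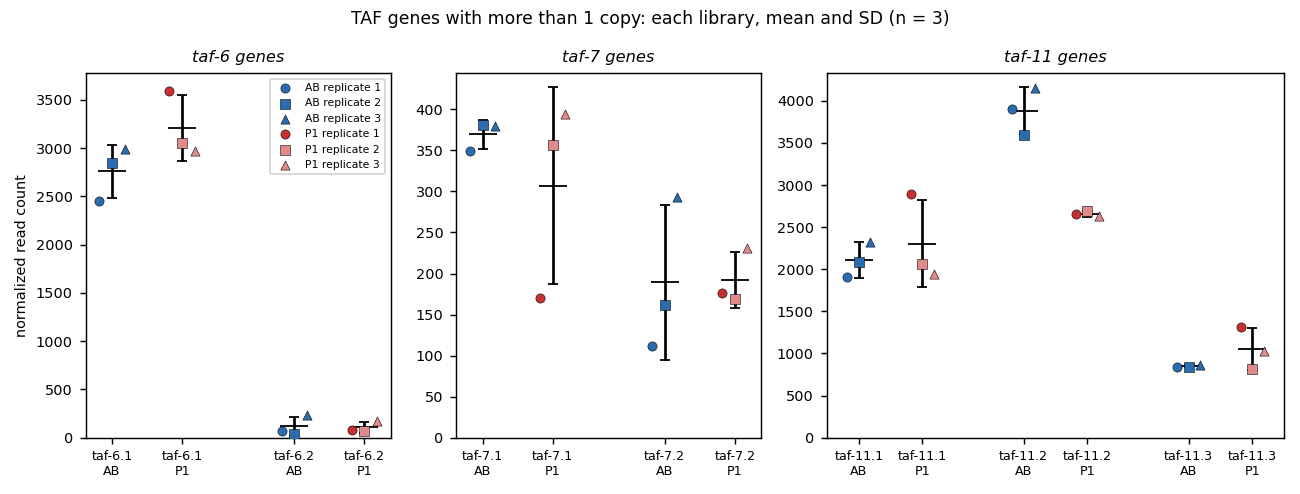
Normalized read count of the TAF genes that are present in more than 1 copy, in each library (symbols), with the mean and SD of each cell (n = 3). The 3 AB libraries of taf-11.2 lie above its 3 P1 libraries, and the cells overlap in the other 6 genes.

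The *taf-6* and *taf-7* copies were unequal. TAF-6 is a histone-fold subunit that pairs with TAF-9, and TAF-7 is known from mammals as a partner that restrains TAF1. Per kb of spliced length *taf-6.1* stood at 2019.7 normalized read counts and *taf-6.2* at 36.3, as means over the 6 libraries. *taf-6.2* had 74.4, 41.5 and 233 normalized read counts in AB and 76.0, 70.9 and 170.0 in P1, and in both cells replicate 3 was the highest. The ratio of *taf-6.1* to *taf-6.2* therefore spread widely, with 38.1 ± 28.2 in AB and 36.0 ± 16.1 in P1, and did not differ detectably (exact permutation *P* = 1). *taf-7.1* stood at 373 per kb and *taf-7.2* at 122. *taf-7.1* had 349, 381 and 379 in AB and 169.7, 357 and 394 in P1, and was low in P1 replicate 1 alone. The interval of the fold change of *taf-6.2* ran from -1.42 to 1.13, so a difference of 1 log2 unit in either direction lies inside it.

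Mediator, too, gave no call. Over the 24 genes 13 fold changes were below 0 and 11 above, with a median of -0.10, and the median ratio within pairs was -0.10, -0.01 and -0.10. It was -0.06 without P1 replicate 1. Without both libraries of replicate 3 the median was 0.01.

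Of the kinase module, which docks on Mediator and mostly restrains it, the 2 long subunits were low in P1 replicate 1. *dpy-22* (the gene of MED12, chromosome X, 9810173 to 9822112) had 5713, 8403 and 5199 normalized read counts in AB and 1688, 6161 and 5102 in P1. *let-19* (MED13) had 4967, 6254 and 4617 in AB and 2079, 5310.3 and 4498 in P1. In both, AB replicate 2 was the highest and P1 replicate 1 less than any other library, and P1 replicates 2 and 3 fell within or just under the AB range. Both were lower in P1 in each of the 3 pairs, with log2 ratios of -0.03 and -0.04 in pair 3. Their fold changes were -0.58 ± 0.31 (adjusted *P* = 0.674) and -0.42 ± 0.27 (adjusted *P* = 0.694). For *dpy-22* the adjusted *P* was 0.0291 without P1 replicate 2, and the fold change there was -0.96. P1 replicate 1 was also the lowest library for the catalytic pair. *cdk-8*, the kinase, had 4126, 4594 and 4510.1 in AB and 3116, 5694 and 5457 in P1, with P1 holding both extremes. Its cyclin, encoded by *cic-1*, had 1696, 1707 and 1757 in AB and 1495, 1626 and 1586 in P1, a small difference in which the cells did not overlap. The fold change of *cic-1* was -0.14 ± 0.23, with a 95% interval from -0.61 to 0.33. Without P1 replicate 1 the fold changes of *dpy-22*, *let-19*, *cdk-8* and *cic-1* were -0.21, -0.13, 0.31 and -0.12.

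Core subunits of Mediator gave the same picture. *mdt-30* (the gene of MED30) was the Mediator member with the smallest *P*. It had 3337, 3327 and 3132 normalized read counts in AB and 1282, 2625 and 2895 in P1, with a fold change of -0.53 ± 0.26 (adjusted *P* = 0.637). All AB values lay above all P1 values, but the size rested in part on P1 replicate 1, without which the fold change was -0.27. *mdt-15*, whose product works with nuclear hormone receptors on lipid genes, had 3566, 3513 and 2735 in AB and 2392, 3455 and 3321 in P1. *let-49*, the gene of MED7 in the middle module, had 2406, 2571 and 2729.6 in AB and 2392, 2616 and 2199 in P1. The cells overlapped in both, with fold changes of -0.10 ± 0.23 and -0.10 ± 0.22.

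In 6 of the 58 genes all AB libraries lay above all P1 libraries, beside 8.81% of the present genes, and in 0 of 58 the reverse held, beside 7.1%. The 6 were *taf-11.2*, *taf-2*, *mdt-8*, *mdt-10*, *mdt-30* and *cic-1*, and *taf-2*, *mdt-8* and *mdt-10* are named for this reason after their values were seen. *mdt-8* encodes a subunit of the Mediator head. It had 5614, 5605 and 5768 in AB and 3284, 4956 and 4874 in P1, with a fold change of -0.38 ± 0.23 (adjusted *P* = 0.686) that was -0.23 without P1 replicate 1. *mdt-10* had 735, 756 and 750.2 in AB and 549.9, 579 and 692 in P1, and *taf-2* had 338, 338 and 344 in AB and 206, 334 and 321 in P1. In *taf-11.2* the gap between the nearest libraries of the cells was larger than the range of the P1 libraries, and in the other 5 it was smaller.

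The Mediator names cover levels from near the limit of presence to above the polymerase median of 7036 per kb. *mdt-21* was the lowest member, with 15.5, 22.2 and 43.6 normalized read counts in AB and 9.5, 17.4 and 29.1 in P1. Its fold change had a 95% interval from -2.65 to 1.58, which holds large differences in both directions. The highest was the gene model that the files call *mdt-28*, at 10285 per kb, with 19238, 16649.6 and 15148 normalized read counts in AB and 19811, 18357 and 16754 in P1. The cells overlapped and the fold change was 0.10 ± 0.23. The identifier of that model belongs to a gene now named *plin-1*, after the lipid droplet protein perilipin, and not to the gene now named *mdt-28*. Without it the Mediator median was -0.10 over 23 genes. Next in level per kb among the Mediator members came *mdt-6* with 5189 and *mdt-8* with 4649.5, and the median of the 24 was 1754.

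*spt-4* and *spt-5* encode the subunits of DSIF, a factor that binds the elongating polymerase. *spt-5* had 11614, 10163 and 9603 normalized read counts in AB and 5442, 9966 and 8507 in P1, and *spt-4* had 2398, 2291 and 2825 in AB and 3946, 2318 and 2746 in P1. P1 replicate 1 was the lowest library for *spt-5* and the highest for *spt-4*, although the proteins form a pair. *spt-5* was lower in P1 in 3 of 3 pairs of libraries and *spt-4* in 1 of 3. The ratio of *spt-5* to *spt-4* per kb was 0.191 in P1 replicate 1 and between 0.429 and 0.670 in the other 5 libraries. *spt-5* is 3829 nt long after splicing and *spt-4* 530 nt. This was 1 of 9 ratios between partners, chosen after their values were seen, and 8 of the 9 were lowest in P1 replicate 1. The ratio of *taf-8* to *taf-10* per kb was 0.143 there and between 0.419 and 0.572 elsewhere, that of *rpb-3* to *rpb-11* was 0.417 against 0.797 to 1.07, and that of *dpy-22* to *let-19* was 0.693 against 0.961 to 1.15. The ratio was also lowest there for 2 pairs in which the first gene is the shorter, with 1.39 against 1.65 to 2.34 for *taf-12* to *taf-4* and 0.749 against 0.9753 to 1.76 for *rpb-2* to *ama-1*. The exception was *taf-6.1* to *taf-9*, at 0.406 in P1 replicate 1 and between 0.372 and 0.543 elsewhere.

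**Figure D3:**
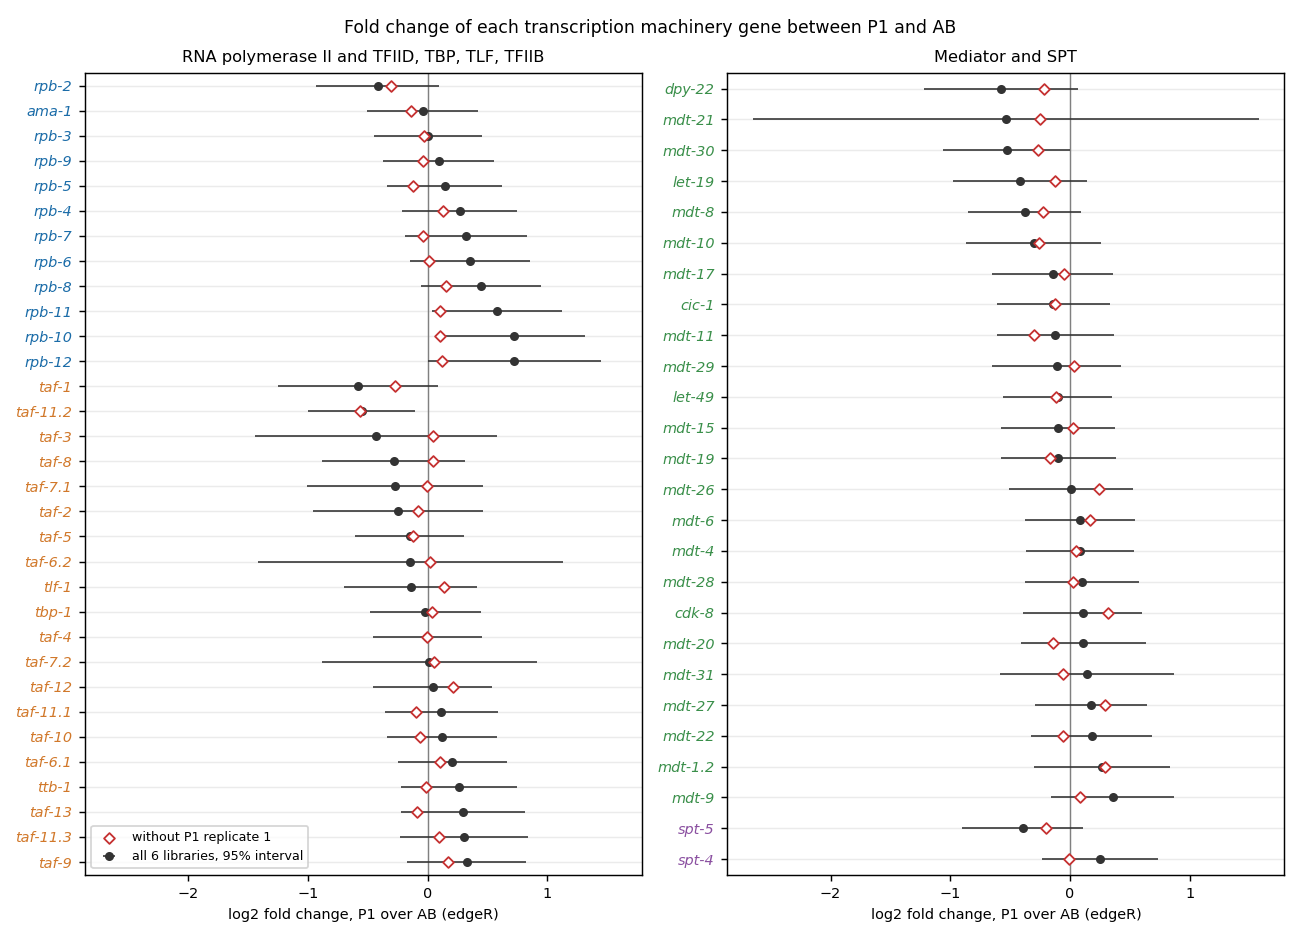
Log2 fold change of P1 over AB by edgeR for each gene: black points with 95% intervals use all 6 libraries, and open red diamonds leave out P1 replicate 1. The diamonds of the small polymerase genes fall back to near 0, while that of taf-11.2 stays at -0.57.

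The departure of P1 replicate 1 followed transcript length. For each library, the log2 difference of a gene from its mean in the other 5 libraries was taken and set against the spliced length. Over the 58 genes Spearman's rho was -0.75 in P1 replicate 1, and it was 0.60, 0.46 and 0.11 in AB replicates 1, 2 and 3 and 0.53 and 0.31 in P1 replicates 2 and 3. Genes are not independent replicates, and each value shares the other libraries, so the positive values partly mirror the negative one. The trend was not particular to these genes. Over the 7806 present genes with a length the coefficients were -0.47 in P1 replicate 1 and between 0.06 and 0.38 elsewhere.

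Of the 17 genes under 700 nt, 16 were highest of all in P1 replicate 1, with a median departure of 0.57 log2 units. The exception was *mdt-10*, named for this after its values were seen. Among all present genes of that length 76.9% were highest there, with a median departure of 0.81. Of the 12 genes of 3000 nt and more, 9 were lowest of all in P1 replicate 1 and 1, *ama-1*, was the highest, with a median departure of -0.63. Among all present genes of that length 63.0% were lowest there. *ama-1*, at 6020 nt, was thus not low in that library, unlike *dpy-22* (10867 nt), *let-19* (9278 nt) and *taf-1* (5674 nt). In all, P1 replicate 1 was the highest library for 25 of the 58 genes and the lowest for 24, beside 33.3% and 37.3% of the present genes.

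The order of the complexes in the main comparison moved with this library. The polymerase genes had a median spliced length of 601 nt and a median fold change of 0.30, and the kinase module had 5644 nt and -0.28. With all libraries, rho between spliced length and fold change over the 58 genes was -0.68, and it was -0.17 without P1 replicate 1. The SD of the 58 fold changes fell from 0.31 to 0.17, and the median size of a fold change from 0.19 to 0.11. With the 5 remaining libraries the medians were -0.01 for the polymerase, 0.01 for TFIID, -0.06 for Mediator and -0.11 for the *spt* genes. What set the departure of P1 replicate 1 was not tested.

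**Figure D4:**
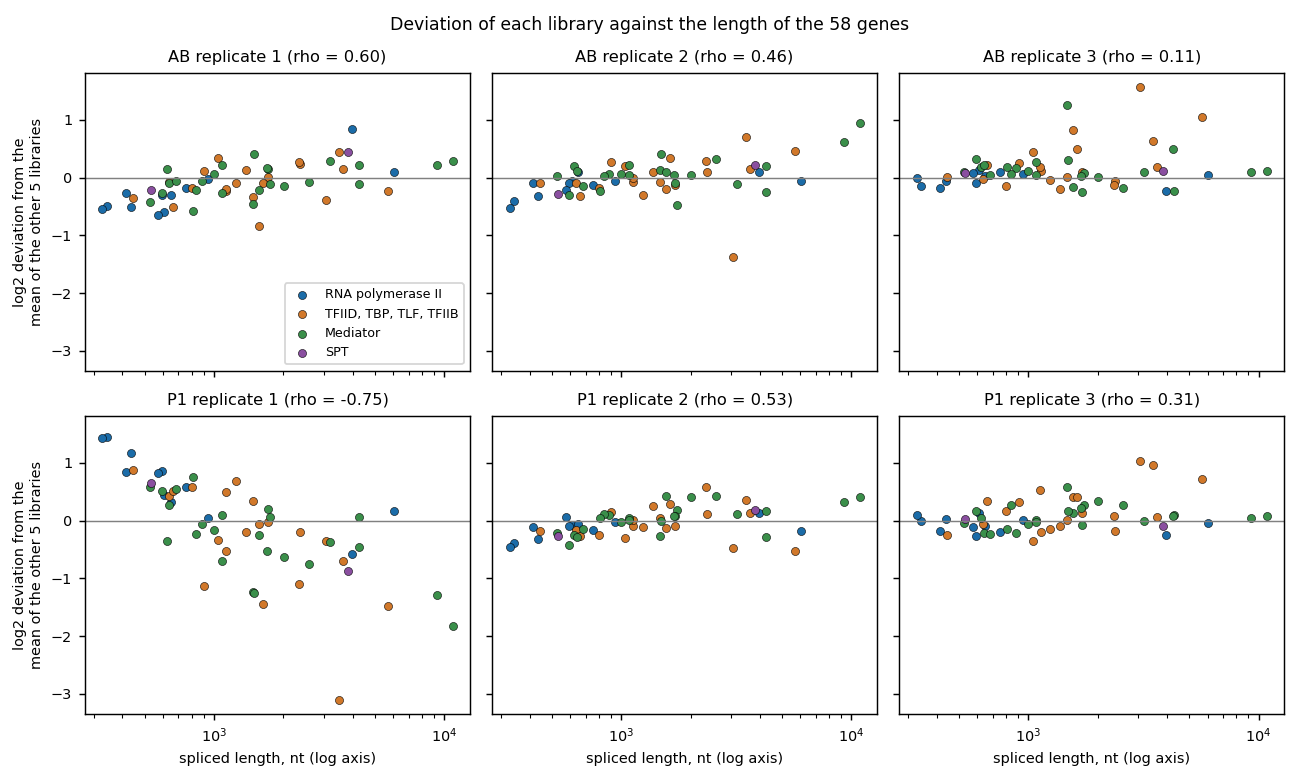
Log2 deviation of each library from the mean of the other 5, against spliced length (log axis), for the 58 genes, coloured by complex, with Spearman's rho in each title. Most short genes lie above 0 and most long genes below 0 in P1 replicate 1 (rho = -0.75). The other 5 libraries trend the other way to unequal degrees (rho from 0.11 to 0.60).

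Other genes of the machinery were examined from lists chosen by function, 46 in all, of which 1 was AB-enriched, beside 0.604% of the present genes, and 1 was P1-enriched, beside 0.856%. None of the 3 Mediator subunits under other names, *rgr-1*, *sur-2* and *sop-3*, was called. Of the 15 general factors, 1 was called. *gtf-2H4*, the gene of the p52 subunit of TFIIH, the factor that opens the promoter, had 2938, 3384 and 2928 normalized read counts in AB and 1627, 1625 and 1770.4 in P1. All AB values lay above all P1 values, and P1 replicate 1 was like the other P1 libraries. The fold change was -0.89 ± 0.22, with an adjusted *P* of 0.0615 by edgeR, and of 0.121 with the replicate number as a block, which ends the call. The call is also lost without any 1 of the AB libraries, with adjusted *P* between 0.103 and 0.419. It is lost too with only present genes in the fit (0.108) or with filterByExpr (0.104), edgeR's own filter on low counts. Without both libraries of replicate 2 or of replicate 3 it is lost as well. The call holds without P1 replicate 2 (0.0483) or P1 replicate 3 (0.0896). The adjusted *P* was 0.00119 with DESeq2, 5.82e-05 without P1 replicate 1 and 4.25e-06 without both libraries of replicate 1. In every setting the fold change lay between -0.96 and -0.80. The other 9 listed subunits of TFIIH and its kinase, of which *xpd-1* and *cyh-1* had few reads, were not called.

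Of the 16 elongation genes, 1 was called, towards P1. *T24H10.1*, which encodes a TFIIS protein that restarts stalled polymerase, had 353, 103 and 236 normalized read counts in AB and 1646, 316 and 597 in P1. P1 replicate 2 lay below AB replicate 1, so the cells overlapped, but P1 was higher within each of the 3 pairs. The fold change was 1.88 ± 0.45 (adjusted *P* = 0.0431, and 0.0299 with the block), and it was 0.96 without P1 replicate 1 (adjusted *P* = 0.0447). The adjusted *P* was 0.0623 with DESeq2, and the call is lost with only present genes in the fit (0.553) and with filterByExpr (0.528). The remaining 15 elongation genes lay between -0.59 and 0.11. Over the 16, 13 fold changes were below 0, with a median of -0.31, and of -0.14 without P1 replicate 1. In 4 of the 16 all AB libraries lay above all P1 libraries, beside 8.81% of the present genes. No gene of polymerases I and III was called among 9, although 7 of their fold changes were above 0. Their median was 0.17, and 0.16 without P1 replicate 1. In 2 of the 9 all P1 libraries lay above all AB libraries, beside 7.1% of the present genes. Of the repressors, *pie-1*, *oma-1* and *oma-2*, none was called. *oma-2* had 34269, 24548 and 27740.5 in AB and 64178, 36780.0 and 33796 in P1, with P1 replicate 1 the highest and the cells overlapping, and a fold change of 0.63 ± 0.27 (adjusted *P* = 0.538). P1 was higher in each of the 3 pairs, by 0.91, 0.58 and 0.28 log2 units. The files place *oma-2* on the same merged model interval as *rpb-9*, so the limit given for *rpb-9* holds for it too.

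**Figure D5:**
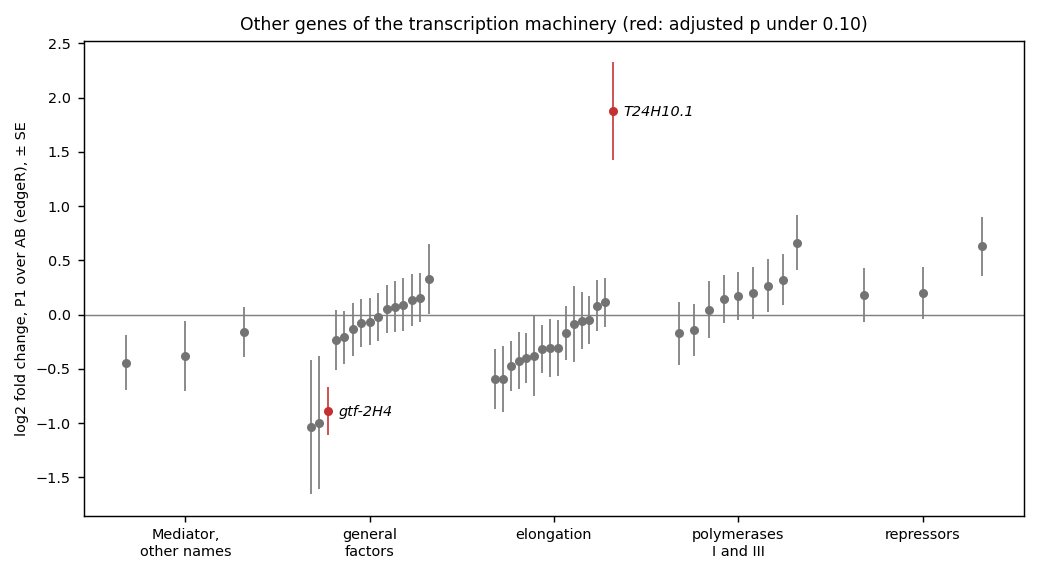
Log2 fold change of P1 over AB by edgeR, with its SE (n = 3 per cell), for 46 other genes of the transcription machinery in 5 lists. The 2 red points passed the adjusted P of 0.10: gtf-2H4 at -0.89 and T24H10.1 at 1.88.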

How the data were processed

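RNA of AB and P1 cells was measured in 6 libraries. The authors filtered the reads, aligned them to ce10 with TopHat 1.4.0 and counted them per RefSeq gene model with HTSeq 0.5.3. They deposited these raw read counts and, as a second table, the normalized read counts, a signal in which each library's counts were divided by 1 size factor from DESeq 1.2.1. Dividing out the factor gave whole reads for 100% of the values (within 0.01), all equal to the raw counts. The paper names more than 1 instrument and read length for its samples. Whether and how these 6 libraries differed in them is not given in the sources used here, so such a batch cannot be told apart from the cells. Whether the counting used strand is not given there either, and 10 of the 58 gene models overlap another model in the files.

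Fold changes are those of P1 relative to AB. Raw counts were tested by edgeR's quasi-likelihood method (edgeR 4.0.16, R 4.3.3), using TMM scaling and the cell as the single factor. All 13717 gene models that had any reads entered, and *P* values were adjusted by Benjamini-Hochberg across them. Genes were called where they were present and the adjusted *P* was below 0.10. The SE of a fold change was its size divided by the square root of the F statistic of the test. Intervals are 95% intervals from the fold change, this SE and a t distribution with the degrees of freedom of the test. Permutation tests were exact and two-sided, in scipy 1.17.1 under Python 3.11.15, and matplotlib 3.10.9 drew the figures. Spliced and coding lengths came from the longest transcript of each gene in WBcel235, found through its WormBase identifier for 58 of 58 genes and 98.3% of the present genes, without use of that build's coordinates. Departures of a library and ratios within pairs used log2 of the normalized read count plus 1.

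Same-numbered libraries hold matched cells, as the paper states. The correlation of their deviations from the mean of their cell was 0.175, 0.220 and 0.173 in pairs 1, 2 and 3 over the present genes, so a fit with the replicate number as a block was made beside the main one. The libraries are separate pools of cells, and *P* values measure the spread between these pools. At these depths 3 counts are between 0.0843 and 0.141 CPM, which covers counting error only, since amplified reads are not independent molecules.

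The genes, the lists and the tests were chosen with earlier results of these data known. Named genes are the 5 with the smallest *P* in each direction, 15 chosen for their role, those that share a number with a copy, and the highest and lowest of each complex by mean normalized read count. Others of the 58 were named after their values were seen. The lists of other genes were Mediator subunits under other names, general factors, elongation factors, subunits of polymerases I and III and repressors of early transcription, beside markers of AB, P1, intestine, sperm and muscle. The other settings were DESeq2 1.42.0, size factors by median of ratios, only present genes in the fit, filterByExpr, the replicate block, an adjusted *P* under 0.05, the coding length, a pseudocount in the ratios, and the omission of each library and each pair. A fit on the whole reads recovered from the normalized read counts was added after the data were seen. Sequences of the genes were not used here.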

Additional observations from a re-analysis of the deposited data

How the results depend on the processing

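The number of the 58 genes called was 0 in each direction with DESeq2, median-of-ratios size factors, only present genes in the fit, filterByExpr, the replicate block, the recovered whole reads and an adjusted *P* under 0.05. With libraries or pairs left out it lay between 0 and 2 towards AB and between 0 and 2 towards P1. Over all present genes, where 48 were AB-enriched and 68 P1-enriched, DESeq2 called 75 and 95, the fit on present genes 25 and 27, filterByExpr 26 and 27, and the replicate block 40 and 51. With libraries or pairs left out the numbers ran from 27 to 279 and from 44 to 293. Of the other genes of the machinery, the 1 AB-enriched call fell to 0 with an adjusted *P* under 0.05, with only present genes in the fit, with filterByExpr and with the replicate block, and it ranged from 0 to 3 with libraries or pairs left out. The 1 P1-enriched call fell to 0 with only present genes in the fit and with filterByExpr, and it was 1 with the replicate block.

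Median fold changes with libraries or pairs left out ran from -0.030 to 0.12 over the 58 genes, from -0.12 to 0.092 for TFIID, from -0.14 to 0.011 for Mediator, from -0.14 to -0.04 for the *spt* genes and from -0.01 to 0.47 for the polymerase. With the replicate block they were 0.03 over the 58 genes, 0.27 for the polymerase, 0.001 for TFIID, -0.09 for Mediator and -0.11 for the *spt* genes, and the block changed no call among the 58. Of 465 fold changes of the 31 named genes under these alternatives, 39 changed sign, all of them uncalled and with a fold change of at most 0.42 in size in the main comparison, and 8 passed the threshold. The coding length moved the level per kb of 15 named genes by over 1 SD of the libraries, and none of 48 paralog ratios moved by as much with a pseudocount of 1 or a replicate left out. The widest intervals were those of *mdt-21*, *taf-6.2* and *taf-3*, and depth and the spread between libraries were not separated in them. With 3 libraries per cell an exact test of a single value cannot go below 0.1.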
